A study of Mus musculus with 9 samples.

Results

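Myotubes were compared with the proliferating satellite cells from which they are formed in culture, across the autosomal genes of the mouse. A gene was taken as a member when its normalized read count was 10 or more in at least 3 of the 6 libraries of these stages. This held for 14774 of the 45706 genes in the table, of which 12360 are protein coding. Of the 40935 autosomal genes, 12571 were at 0 in all 6 libraries and 13590 were above 0 but under the minimum. At the edge of the rule, the value ranked 3 of 6 was exactly 10 in 287 genes and 9 in 284.

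Satellite cells are the resident stem cells of skeletal muscle. The cells came from wild-type C57Bl6 mice aged 12 to 20 weeks. For the proliferating stage they were cultured for 3 days or longer in equal parts of DMEM and Ham F-10 (40% each), fetal calf serum at 20% and human FGF-2 at 2.5 ng/ml. For the myotube stage the same culture was followed by 6 days in DMEM with 2% horse serum, and the labels call these cells myotubes in the title and differentiating in the stage field. Both stages therefore share isolation and growth in culture, and they differ in basal medium (Ham F-10), serum, FGF-2 and time. Each stage has 3 libraries from different animals. The remaining stage of 3 freshly isolated samples entered the statistical model only to estimate the spread.

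When growth factors are withdrawn, myoblasts leave the cell cycle and switch on muscle genes, and they then fuse into multinucleated myotubes that build sarcomeres. Myod1 and Myf5 specify the lineage, and Myog and the Mef2 factors drive the later muscle genes. Cell cycle exit in these cells is held by Cdk inhibitors and by the retinoblastoma protein, which keeps E2F factors from activating replication genes.

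The values were read counts scaled between libraries and rounded, here called normalized counts. Their totals were 17.8 to 18.2 M per proliferating and 19.5 to 20.8 M per myotube library, for an estimated 20.4 to 24.3 M and 22.0 to 22.8 M reads. Triplets of values are replicates 1, 2 and 3 in that order. Log2 changes are myotubes minus proliferating on the log2(value + 1) scale, ± SE, which understates the change of genes near 0 and makes its size depend on the added 1, and adjusted p-values come from limma, adjusted over 17291 genes by the Benjamini-Hochberg method. The median SD over the 3 libraries was 11.1% of the mean in proliferating cells and 10.3% in myotubes. The first principal component of the 6 libraries, with 90.3% of the variance, separated the stages.

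Of the members 4576 were called higher in myotubes (31.0%) and 4089 lower (27.7%) at an adjusted p below 0.05, so that 58.7% were called. The 3 myotube values all lay above the 3 proliferating values in 5973 members (40.4%) and all below in 5367 (36.3%). Lack of overlap, given for some genes below, was therefore common and sets no gene apart. Large rises outnumbered large falls. Among called genes 2840 were higher and 2269 lower by 2-fold or more, 330 and 38 by 16-fold or more, and 86 and 3 by 64-fold or more. The median log2 change of all members was 0.06. With quantile normalization it was -0.09, and the median shift per gene was -0.13, so changes are relative to this shift. Values under it stand beside the named genes that it moved by more than 1.5-fold. Of the members 522 reached 10 in no proliferating library and 449 of them were called higher, while 367 reached 10 in no myotube library and 256 of them were called lower. These genes passed the minimum only through the stage in which they were high. Among the 13885 members that reached 10 in both stages, 4127 were higher and 3833 lower.

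**Figure D1:**
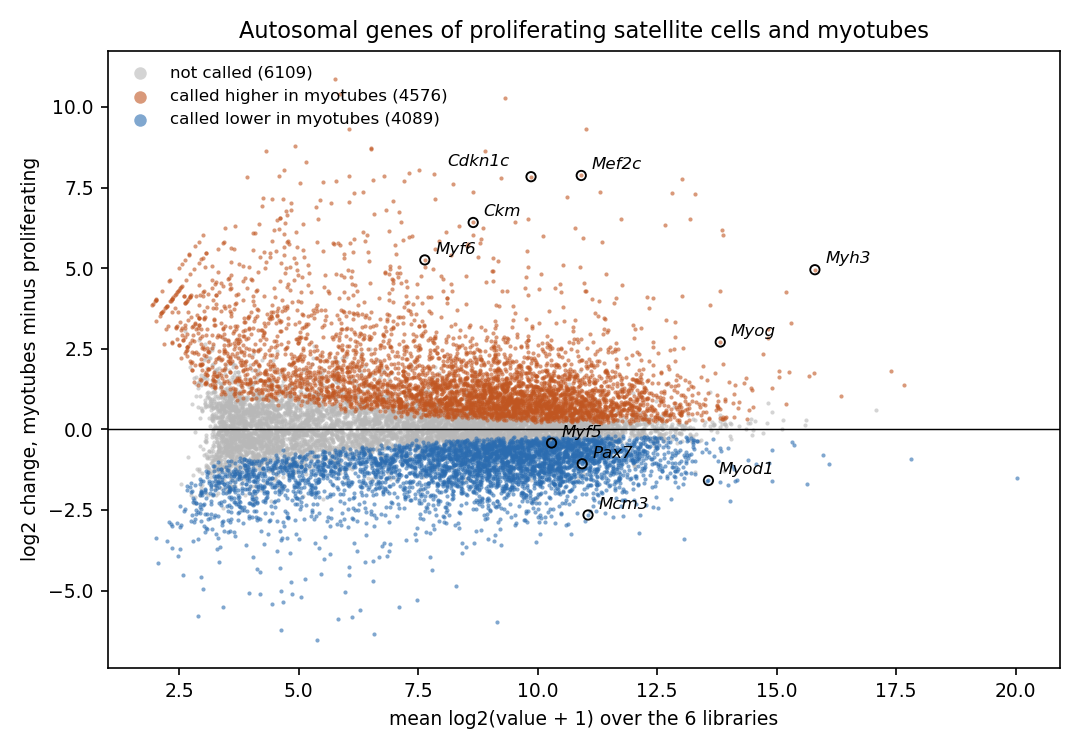
Each dot is one autosomal gene, with the mean of log2(value + 1) over the 6 libraries on the x axis and the log2 change of myotubes against proliferating cells on the y axis. The 4576 genes called higher (orange) reach log2 changes above 10, the 4089 called lower (blue) end at -6.53, and 6109 are not called (grey), while circles mark the landmark genes.

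Proliferating replicate 1 stood apart from the other proliferating libraries, and it did so in muscle genes. The second principal component (3.82%) placed it at 34.8 and replicates 2 and 3 at -22.3 and -17.8. Its log2 value minus the mean of the others had a median of -2.11 over thick filament genes and -1.18 over thin filament and Z-disc genes, and of -0.0021 over all members. Ribosome biogenesis genes went the other way, with a median of 0.22. Replication (0.10) and mitosis genes (-0.04) were close to the other libraries. Without this library 4053 members were called higher (27.4%) and 3525 lower (23.9%). Its absence moved the log2 change of 177 of 8665 called members by more than 1.5-fold, and the values without it stand beside the genes named below where this holds. In bulk RNA, fewer cells of a type and less RNA per cell cannot be told apart, in this library and in every level below.

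**Figure D2:**
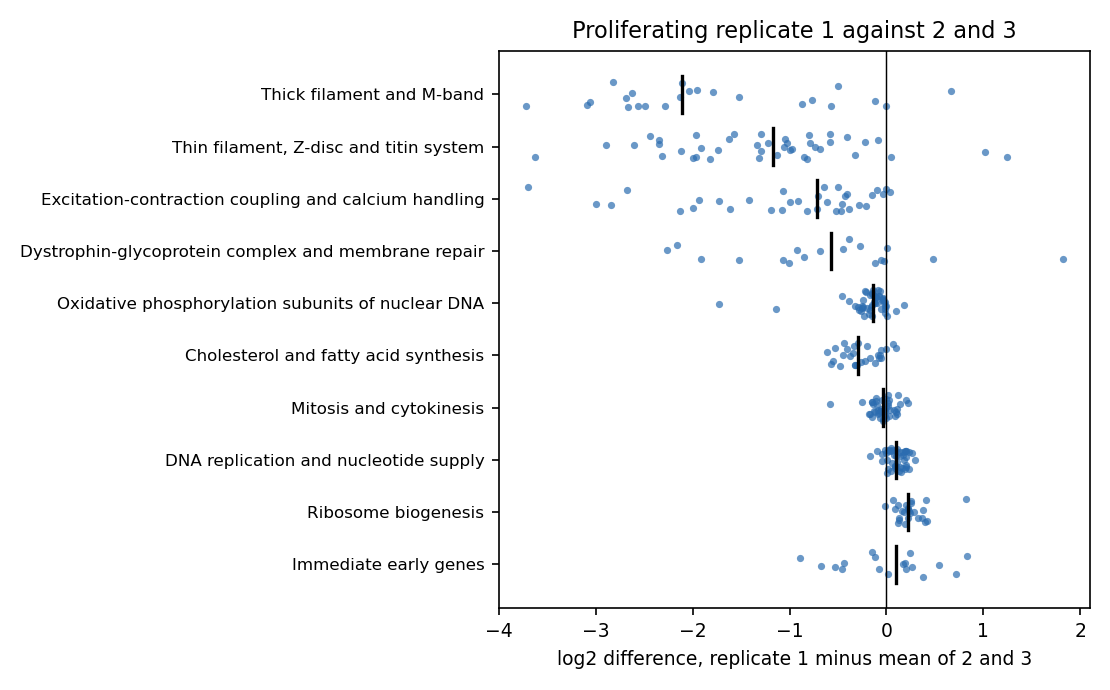
Each dot is one gene, placed by its log2 value in proliferating replicate 1 minus the mean of replicates 2 and 3, for 10 gene lists; black bars are medians. Thick filament genes have a median of -2.11 and ribosome biogenesis genes one of 0.22.

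The 5 genes that mark the stages separated them in every library. Mcm3, a subunit of the helicase that opens DNA for replication (chr1:20802968-20820312), was at 5494, 5575 and 4983 in proliferating cells and at 816, 1089 and 683 in myotubes (log2 change -2.66 ± 0.38, adjusted p = 0.000194). Mef2c, a transcription factor of muscle genes (chr13:83504034-83667080), was at 33, 297 and 196 in proliferating cells and 29906, 26333 and 32818 in myotubes (log2 change 7.88 ± 0.66, adjusted p = 6.79e-06). Cdkn1c, the Cdk inhibitor p57 (chr7:143458339-143461050), was at 25, 106 and 83 in proliferating cells and 12852, 14582 and 14915 in myotubes (log2 change 7.84 ± 0.86, adjusted p = 3.42e-05). The stages were far apart in these genes, and proliferating replicate 1 was lowest in the genes of myotubes. Ckm, the muscle creatine kinase (chr7:19404776-19422841), was at 14, 94 and 57 in proliferating cells and 3891, 2892 and 4579 in myotubes (log2 change 6.42 ± 0.62, adjusted p = 1.6e-05), and Myh3, the embryonic myosin heavy chain (chr11:67078300-67102291), at 3055, 23038 and 15385 in proliferating cells and 323523, 296158 and 335321 in myotubes (log2 change 4.95 ± 0.67, adjusted p = 0.000134). Leaving out proliferating replicate 1 gave log2 changes of 6.93 for Mef2c, 7.22 for Cdkn1c, 5.65 for Ckm and 4.08 for Myh3. The log2 change without proliferating replicate 2 was 8.50 for Mef2c. An annotated transcript on the same locus, Gm44732, shares 30.7% of the exonic length of Cdkn1c, on the opposite strand, so part of the Cdkn1c count is uncertain.

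**Figure D3:**
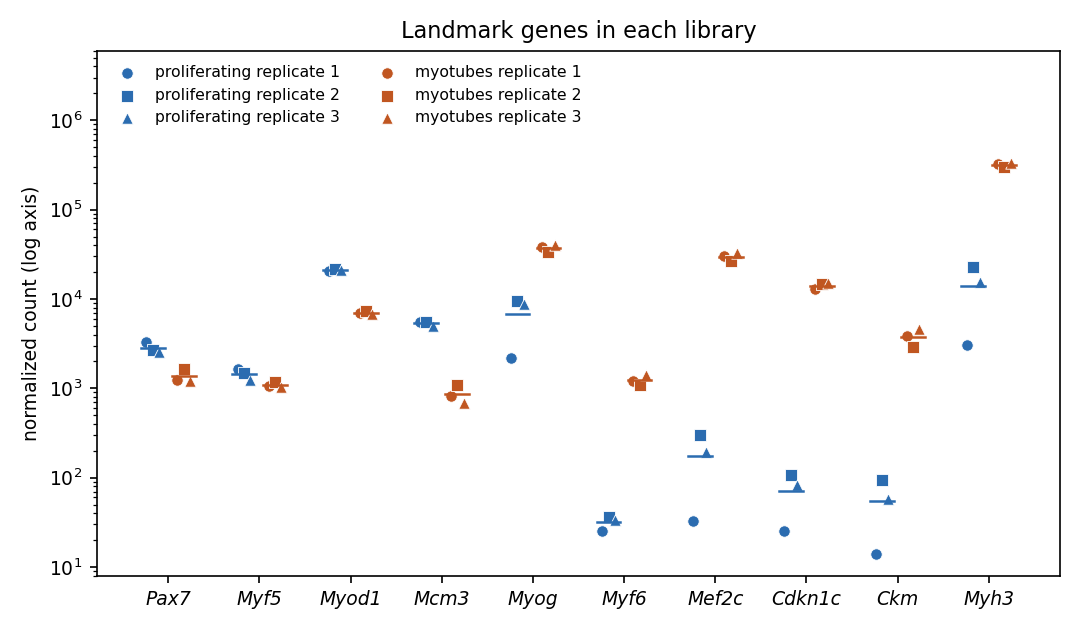
Normalized counts of 10 landmark genes in the 3 proliferating (blue) and 3 myotube libraries (orange) on a log axis, with bars at the stage means. Pax7, Myf5, Myod1 and Mcm3 are lower in all 3 myotube libraries, the other 6 genes are higher, and proliferating replicate 1 is the lowest blue point in those 6.

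Of 35 myogenic regulators measured at the minimum (of 37 listed), 10 were higher (28.6%) and 17 lower (48.6%), with a median log2 change of -0.25. The share higher was near the 31.0% over all members, of which 27.7% were lower. Factors of the early lineage were among the falls. Pax7, which defines satellite cells, was at 3330, 2668 and 2556 in proliferating cells and 1254, 1645 and 1192 in myotubes (log2 change -1.07 ± 0.16, adjusted p = 0.000247), and Myod1 at 20690, 21446 and 21302 in proliferating cells and 6955, 7315 and 6858 in myotubes (log2 change -1.59 ± 0.12, adjusted p = 3.17e-06). Neither gene overlapped between the stages, and both remained above 1000 in every myotube library. Myf5 was at 1644, 1501 and 1241 in proliferating cells and 1049, 1171 and 1032 in myotubes, a smaller fall (log2 change -0.42 ± 0.13, adjusted p = 0.0183). The call of Myf5 was lost without proliferating replicate 1 (log2 change -0.33, adjusted p = 0.073), without proliferating replicate 2 (adjusted p = 0.0578) and without myotubes replicate 1 or 3 (adjusted p = 0.0605 and 0.0642).

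Late factors were among the rises. Myog, the factor of terminal differentiation (chr1:134289989-134292548), was at 2179, 9530 and 8749 in proliferating cells and 37811, 33789 and 39734 in myotubes (log2 change 2.71 ± 0.91, adjusted p = 0.0285). Proliferating replicate 1 was the lowest library by far, and all 3 myotube values exceeded every proliferating one. The call of Myog was lost without proliferating replicate 1 (log2 change 2.02, adjusted p = 0.113) and without myotubes replicate 1, 2 or 3 (adjusted p = 0.0688, 0.0639 and 0.0743), with quantile normalization (adjusted p = 0.0546) and without a trend (adjusted p = 0.0592). Among the Mef2 factors Mef2c rose (above), Mef2a was at 5546, 10843 and 8749 in proliferating cells and 13125, 14538 and 14163 in myotubes (log2 change 0.79 ± 0.25, adjusted p = 0.0207; not called with quantile normalization, adjusted p = 0.08, or without proliferating replicate 1, 0.071, or myotubes replicate 2 or 3, 0.0609 and 0.0579), and Mef2d, at 2309, 2998 and 2796 in proliferating cells and 3017, 2773 and 3139 in myotubes, was not called (adjusted p = 0.299, with 0.152 to 0.792 over the alternatives). Myf6, the remaining member of the Myod family, was at 25, 36 and 34 in proliferating cells and 1204, 1095 and 1422 in myotubes (log2 change 5.26 ± 0.84, adjusted p = 0.000436), and Smyd1, a methyltransferase of striated muscle, at 1429, 2755 and 2633 in proliferating cells and 9718, 9486 and 9885 in myotubes (log2 change 2.15 ± 0.46). Among inhibitors of these factors Id2 was at 2162, 1833 and 1749 in proliferating cells and 603, 625 and 599 in myotubes (log2 change -1.65 ± 0.20), and Id1, Id3 and Id4 were also called lower. Six2, a homeobox factor, had the largest fall of the list, from 539, 350 and 373 to 30, 46 and 28 (log2 change -3.57 ± 0.26). Tead4 was at 728, 1239 and 1150 in proliferating cells and 3133, 2965 and 3222 in myotubes without overlap, but was not called in the model of all stages (adjusted p = 0.141), and over all alternatives its adjusted p ranged from 2.57e-05 to 0.298.

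Thick filament genes rose almost as a block. Of 23 members 22 were called higher and 1 lower, with a median log2 change of 5.58 against 0.06 for all members. Together they made up 0.0368%, 0.215% and 0.156% of the normalized total in proliferating replicates 1, 2 and 3, and 4.83%, 4.13% and 5.16% in myotubes. Proliferating replicate 1 was below both others in 19 of the 23 genes, against 37.2% of all members.

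The myosin heavy chain genes lie in a cluster on chromosome 11, with the slow isoforms elsewhere, and each is used at a given time or in a given fibre type. Myh8, the perinatal isoform (chr11:67277124-67308634), was at 23, 231 and 99 in proliferating cells and 53732, 45773 and 58801 in myotubes (log2 change 9.32 ± 0.82, adjusted p = 8.85e-06). Myh1, an adult fast isoform, was at 163, 1360 and 818 in proliferating cells and 89954, 81073 and 103059 in myotubes (log2 change 7.32 ± 0.60, adjusted p = 6.01e-06). The adult fast isoforms Myh2 and Myh4 were near 0 in proliferating cells, and both reached every myotube library. Myh2 was at 1, 9 and 5 in proliferating cells and 276, 205 and 228 in myotubes (log2 change 5.58 ± 0.61) and Myh4 at 0, 24 and 6 in proliferating cells and 1001, 734 and 994 in myotubes (log2 change 7.33 ± 0.92). Myh7, the slow isoform, was at 10, 81 and 73 in proliferating cells and 9476, 8298 and 9177 in myotubes (log2 change 7.79 ± 0.79). Myh6, the cardiac alpha isoform, was at 0 in all 3 proliferating libraries and at 44, 33 and 51 in myotubes, at least 17.6-fold higher against a floor of 3 reads per library, averaged over the stage. Since these genes are similar in sequence, reads that fit more than 1 of them could move between isoforms, so low values such as those of Myh6 are uncertain. Log2 changes refitted without proliferating replicate 1 were 8.43 for Myh8, 6.43 for Myh1, 4.93 for Myh2, 6.09 for Myh4 and 6.85 for Myh7. With proliferating replicate 2 left out, the log2 change was 10.07 for Myh8, 7.95 for Myh1 and 8.41 for Myh4.

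Light chains rose with the heavy chains. Myl1, the fast essential light chain, was at 135, 1293 and 1033 in proliferating cells and 131293, 93051 and 148794 in myotubes (log2 change 7.75 ± 0.68, adjusted p = 8.82e-06). Myl4, the embryonic one, was at 252, 1754 and 1156 in proliferating cells and 127211, 99773 and 157350 in myotubes (log2 change 7.30 ± 0.59), and Mylpf, the fast regulatory chain, at 698, 3469 and 2725 in proliferating cells and 140872, 89869 and 141671 in myotubes (log2 change 6.02 ± 0.99). In all of them the proliferating libraries differed by more than 3-fold among themselves and the myotube libraries by less than 2-fold. Mylk2, the kinase of the regulatory chain, was the exception to the rise, at 137, 168 and 132 in proliferating cells and 99, 76 and 118 in myotubes (log2 change -0.59 ± 0.19, adjusted p = 0.0268). When proliferating replicate 1 was removed, the log2 change became 6.72 for Myl1, 6.47 for Myl4 and 5.30 for Mylpf. Leaving out proliferating replicate 2 gave log2 changes of 8.35 for Myl1. The call of Mylk2 was lost without proliferating replicate 2 (log2 change -0.48, adjusted p = 0.1), myotubes replicate 1 (-0.61, adjusted p = 0.0587) or myotubes replicate 2 (-0.42, adjusted p = 0.0924).

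The start of the Myh3 gene is shown because this isoform is a marker of the myotube stage; it was chosen after its values were seen. The RefSeq promoter (GRCm38.p6, chr11:67078050-67078349, plus strand, 250 bases before to 50 after the start) is printed 5′ to 3′, with the letters TATAAA in capitals, 29 bases before the start. Matches were searched on both strands. TATAAA was found in 39.1% of 23 promoters of thick filament genes, 7.13% of 12646 promoters of members and 13.6% of all 32851 promoters in the table.
Myh3: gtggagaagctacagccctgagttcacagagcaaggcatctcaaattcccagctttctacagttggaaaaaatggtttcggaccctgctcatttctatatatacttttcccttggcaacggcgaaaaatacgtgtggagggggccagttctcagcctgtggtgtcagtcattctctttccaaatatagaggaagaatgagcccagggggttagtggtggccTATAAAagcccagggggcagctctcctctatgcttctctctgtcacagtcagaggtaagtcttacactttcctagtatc

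Of 42 thin filament, Z-disc and titin genes (of 43 listed), 38 were higher and none was lower, with a median log2 change of 3.99. Acta1, the actin of adult skeletal muscle, was at 2770, 18075 and 12511 in proliferating cells and 173090, 142430 and 181974 in myotubes (log2 change 4.27 ± 0.53, adjusted p = 8.22e-05), and Actc1, the actin of heart and developing muscle, at 453, 4356 and 2618 in proliferating cells and 124677, 122868 and 133545 in myotubes (log2 change 6.20 ± 0.93, adjusted p = 0.000287). Proliferating replicate 1 was the lowest library in both. Myot, myotilin of the Z-disc, was at 0, 3 and 0 in proliferating cells and 2323, 1651 and 2606 in myotubes (log2 change 10.41 ± 0.89, adjusted p = 7.4e-06), and Tcap, the titin cap, at 6, 4 and 10 in proliferating cells and 2115, 1189 and 1901 in myotubes (log2 change 7.86 ± 0.50, adjusted p = 1.68e-06). Myoz2, a Z-disc partner of calcineurin, was at 8, 21 and 15 in proliferating cells and 3568, 3044 and 4074 in myotubes (log2 change 7.91 ± 1.05). These 3 genes were at 21 or less in every proliferating library. The log2 change without proliferating replicate 1 was 3.46 for Acta1 and 5.23 for Actc1. Log2 changes refitted without proliferating replicate 2 were 6.86 for Actc1 and 11.07 for Myot.

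Genes of the giant scaffold proteins had high counts in the proliferating libraries. Counts were not divided by gene length, so they do not rank transcripts of different genes. Ttn, titin, was at 88632, 140867 and 168106 in proliferating cells and 310256, 351760 and 345687 in myotubes (log2 change 1.39 ± 0.34, adjusted p = 0.00544), and Neb, nebulin of the thin filament, at 8030, 15389 and 17335 in proliferating cells and 117058, 124963 and 138746 in myotubes (log2 change 3.30 ± 0.24, adjusted p = 3.33e-06). Des, desmin of the intermediate filaments that tie Z-discs together, was at 17512, 24065 and 22403 in proliferating cells and 74698, 61850 and 82760 in myotubes (log2 change 1.78 ± 0.17, adjusted p = 1.35e-05). With quantile normalization Ttn was no longer called (log2 change 0.52, adjusted p = 0.266), and the log2 changes were 2.47 for Neb, 0.97 for Des, 3.67 for Acta1 and 5.60 for Actc1. The estimated rises of these genes were smaller than those of the actins. Among the troponins Tnni1, the slow troponin I, was at 293, 1214 and 1082 in proliferating cells and 59784, 48536 and 69942 in myotubes (log2 change 6.33 ± 0.49) and Tnnc1, the slow troponin C, at 402, 1686 and 1363 in proliferating cells and 98963, 71351 and 102937 in myotubes (log2 change 6.53 ± 0.56). Tnnc2, the fast troponin C, was at 1, 5 and 3 in proliferating cells and 306, 143 and 199 in myotubes, but 74.0% of its exonic length is shared with Ube2c on the opposite strand and its value is uncertain. The 4 uncalled members were Xirp1, Obsl1, Flnc and Tnni3. With proliferating replicate 1 left out, the log2 change was 5.68 for Tnni1 and 5.89 for Tnnc1.

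All 34 genes of excitation-contraction coupling and calcium handling were members, and 32 were higher and none lower, with a median log2 change of 3.76. This system couples the membrane voltage to calcium release. Casq1, the calcium-binding protein of the sarcoplasmic reticulum (chr1:172209894-172219868), was at 10, 37 and 13 in proliferating cells and 23549, 19884 and 23755 in myotubes (log2 change 10.27 ± 0.38, adjusted p = 1.84e-07). Trdn, triadin, which anchors it to the release channel, was at 6, 53 and 36 in proliferating cells and 10363, 8055 and 10544 in myotubes (log2 change 8.64 ± 0.78, adjusted p = 9.94e-06). Casq2, the cardiac form, was at 48, 469 and 324 in proliferating cells and 34945, 28945 and 33727 in myotubes (log2 change 7.37 ± 1.08), and Cacna1s, the voltage sensor, at 53, 419 and 358 in proliferating cells and 5581, 5387 and 6217 in myotubes (log2 change 4.83 ± 0.97). Myotube values of these genes lay within 1.5-fold of each other, and proliferating values spread more widely, with replicate 1 lowest. When proliferating replicate 1 was removed, the log2 change became 7.74 for Trdn, 6.37 for Casq2 and 3.88 for Cacna1s. Leaving out proliferating replicate 2 gave log2 changes of 8.01 for Casq2.

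Ryr1, the release channel itself, was at 2296, 3719 and 4413 in proliferating cells and 11292, 10053 and 12865 in myotubes (log2 change 1.76 ± 0.25, adjusted p = 0.000189), a smaller change from a higher start. Kcnj2, the inward rectifier potassium channel, was at 2, 7 and 7 in proliferating cells and 698, 763 and 851 in myotubes (log2 change 7.06 ± 0.54). Pvalb, the calcium buffer of fast fibres, was at 1, 1 and 3 in proliferating cells and 327, 207 and 530 in myotubes (log2 change 7.04 ± 0.47). Fxyd1, the sodium pump regulator phospholemman, was at 0, 1 and 1 in proliferating cells and 450, 248 and 431 in myotubes (log2 change 7.84 ± 0.35). Sln, sarcolipin, an inhibitor of the calcium pump, was at 0 in all 3 proliferating libraries and at 70, 48 and 78 in myotubes, at least 26.9-fold higher. Atp2a2, the calcium pump of slow and non-muscle cells, was not called, at 11905, 13781 and 12720 in proliferating cells and 13303, 13366 and 15055 in myotubes, while Jph2, a junction protein, was at 5062, 7135 and 6346 in proliferating cells and 8175, 7735 and 8316 in myotubes and also missed the threshold (adjusted p = 0.212, with 0.0071 to 0.483 over the alternatives).

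Promoters of Casq1 and Des are shown because these genes belong to the membrane and filament systems that rose; they were chosen after their values were seen. Both are RefSeq sequences of GRCm38.p6, for Casq1 chr1:172219846-172220145 on the minus strand and for Des chr1:75360042-75360341 on the plus strand. Capitals mark CAGCTG, a form of the E-box bound by Myod family factors, at 195 bases before the start in Casq1 and 36 before in Des. They also mark the spelling CTA, any 4 bases and TAG, at bases 7 to 16 of Des. This spelling is looser than the Mef2 site, so a match need not be one. CAGCTG was found in 44.4% of 27 promoters of coupling genes and 37.8% of 37 promoters of thin filament genes, against 16% of members and 16.3% of all promoters. The looser spelling was found in 27% of the thin filament promoters, 3.17% of members and 3.69% of all promoters. Both strands were searched, and the matches are descriptions and say nothing of binding.
Casq1: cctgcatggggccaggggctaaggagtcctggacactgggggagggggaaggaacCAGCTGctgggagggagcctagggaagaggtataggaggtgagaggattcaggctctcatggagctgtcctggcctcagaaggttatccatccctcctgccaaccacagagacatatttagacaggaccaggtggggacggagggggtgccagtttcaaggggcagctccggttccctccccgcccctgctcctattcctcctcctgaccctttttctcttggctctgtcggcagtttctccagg
Des: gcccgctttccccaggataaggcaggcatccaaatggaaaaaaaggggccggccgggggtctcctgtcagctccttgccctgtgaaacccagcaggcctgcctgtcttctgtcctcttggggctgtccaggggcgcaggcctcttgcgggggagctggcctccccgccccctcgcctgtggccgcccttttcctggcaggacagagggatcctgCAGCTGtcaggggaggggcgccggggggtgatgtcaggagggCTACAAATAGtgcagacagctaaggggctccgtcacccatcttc

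Of 14 genes of the acetylcholine receptor and synapse, 9 were higher (64.3%) and 4 lower (28.6%), with a median log2 change of 0.68. The share lower was near the 27.7% over all members, and 31.0% of these were higher. Most receptor subunits were higher. Chrna1 was at 17757, 20586 and 20665 in proliferating cells and 48605, 44360 and 52038 in myotubes (log2 change 1.30 ± 0.10, adjusted p = 3.42e-06, or a log2 change of 0.48 with quantile normalization) and Chrng, the embryonic subunit, at 1173, 2352 and 2437 in proliferating cells and 9810, 8773 and 11148 in myotubes (log2 change 2.38 ± 0.57, adjusted p = 0.00495). Chrne, the adult subunit that replaces it, was at 9, 2 and 7 in proliferating cells and 73, 38 and 77 in myotubes (log2 change 3.29 ± 0.54). No myotube value overlapped with a proliferating one in these subunits, and 40.4% of all members likewise lay wholly above. Chrnd was at 1711, 2534 and 2593 in proliferating cells and 5153, 4837 and 6058 in myotubes, also without overlap, but was not called (adjusted p = 0.336, with 7.61e-05 to 0.516 over the alternatives, the lowest from the 6 libraries alone). The signalling genes that cluster receptors at the synapse went the other way in part. Lrp4, the agrin receptor, was at 5875, 7745 and 7707 in proliferating cells and 3183, 3588 and 3263 in myotubes (log2 change -1.08 ± 0.21, adjusted p = 0.0015), Agrn itself at 691, 638 and 729 in proliferating cells and 271, 296 and 225 in myotubes (log2 change -1.38 ± 0.22) and Dok7, the activator of Musk, at 2424, 2388 and 2651 in proliferating cells and 1361, 1489 and 1326 in myotubes (log2 change -0.84 ± 0.18). Musk was higher, at 3463, 3858 and 4477 in proliferating cells and 5313, 5069 and 5488 in myotubes (log2 change 0.43 ± 0.11).

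Fusion and adhesion genes were mixed. Of 28 members (of 31 listed), 11 were higher (39.3%) and 7 lower (25%), with a median log2 change of -0.03. The shares over all members were 31.0% higher and 27.7% lower. The muscle fusogens rose. Tmem8c, the gene of myomaker, was at 341, 1394 and 1033 in proliferating cells and 11961, 10853 and 13466 in myotubes (log2 change 3.93 ± 1.00, adjusted p = 0.00731), and Gm7325, the gene of myomixer, at 32, 213 and 211 in proliferating cells and 951, 891 and 1068 in myotubes (log2 change 3.08 ± 0.82, adjusted p = 0.00923). Both were present in every proliferating library and lowest in replicate 1. Cav3, the caveolin of muscle membranes, was at 40, 195 and 99 in proliferating cells and 8794, 6696 and 10326 in myotubes (log2 change 6.51 ± 1.11, adjusted p = 0.000658), and Dysf, a membrane repair protein, at 138, 433 and 366 in proliferating cells and 1601, 1542 and 1995 in myotubes (log2 change 2.60 ± 0.75, adjusted p = 0.0139). In the other direction Myof, the ferlin myoferlin, was at 12572, 12658 and 11899 in proliferating cells and 6453, 7221 and 6542 in myotubes (log2 change -0.88 ± 0.08, adjusted p = 1.24e-05). Kirrel, an adhesion protein, was at 5192, 4733 and 5197 in proliferating cells and 1294, 1554 and 1090 in myotubes (log2 change -1.95 ± 0.13), and Dock1, an activator of Rac, at 1635, 1831 and 1623 in proliferating cells and 693, 936 and 594 in myotubes (log2 change -1.22 ± 0.16). The log2 change without proliferating replicate 1 was 3.33 for Tmem8c, 2.18 for Gm7325, 5.92 for Cav3 and 2.09 for Dysf (adjusted p = 0.0598).

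The dystrophin-glycoprotein complex links the cytoskeleton to the matrix. Of 18 listed genes of this complex and of membrane repair, 12 rose and 3 fell, with a median log2 change of 1.29. Capn3, a muscle calpain, was at 10, 55 and 49 in proliferating cells and 5029, 4924 and 5471 in myotubes (log2 change 7.36 ± 0.51, adjusted p = 2.53e-06). Dtna, dystrobrevin alpha, was at 165, 185 and 217 in proliferating cells and 3952, 3742 and 4027 in myotubes (log2 change 4.37 ± 0.17, adjusted p = 1.84e-07), whereas its relative Dtnb was at 662, 453 and 499 in proliferating cells and 183, 178 and 135 in myotubes (log2 change -1.69 ± 0.18, adjusted p = 2.88e-05). The dystrobrevins thus moved in opposite directions, with no overlap in either. Among all members 40.4% lay wholly above and 36.3% wholly below. Nos1, the neuronal nitric oxide synthase that binds the complex, was at 45, 82 and 111 in proliferating cells and 16, 21 and 19 in myotubes (log2 change -1.95 ± 0.39). Sgcd, delta-sarcoglycan, was at 4, 1 and 0 in proliferating cells and 301, 274 and 334 in myotubes (log2 change 7.14 ± 0.73). Log2 changes refitted without proliferating replicate 1 were 6.60 for Capn3 and 7.74 for Sgcd.

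**Figure D4:**
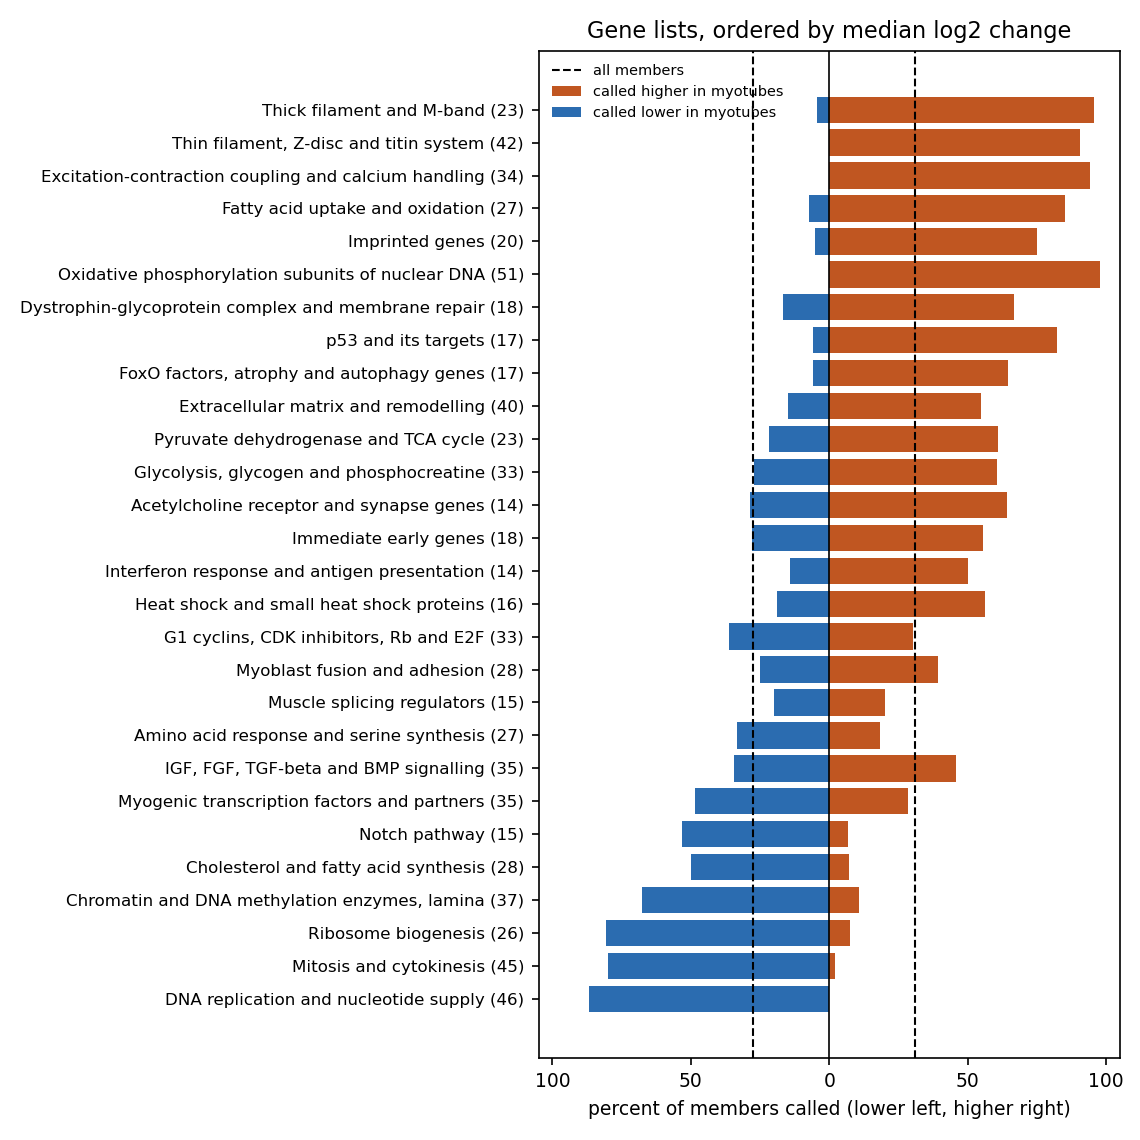
Bars give the percent of members of each of 28 gene lists called lower (left, blue) or higher (right, orange) in myotubes, with the number of members in brackets; dashed lines give the shares over all members, 27.7% lower and 31.0% higher. Contractile and respiratory lists lie almost wholly on the right, and replication, mitosis and ribosome biogenesis on the left.

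Replication genes fell together. All 46 listed genes were members, 40 were lower and none was higher, with a median log2 change of -1.78. Their share of the normalized total was 0.548%, 0.542% and 0.505% in proliferating cells and 0.137%, 0.175% and 0.121% in myotubes, with myotube replicate 2 the highest of its stage. The genes were still detected in every myotube library. All 6 uncalled members, among them Rrm1, Gins3 and Gins4, were called lower when the 6 libraries were fitted without the freshly isolated ones (46 of 46).

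Cdt1, which loads the helicase, was at 1748, 1457 and 1510 in proliferating cells and 213, 282 and 192 in myotubes (log2 change -2.79 ± 0.21, adjusted p = 4.14e-06). Mcm5, a subunit of the helicase, was at 3629, 3671 and 3223 in proliferating cells and 521, 791 and 478 in myotubes (log2 change -2.59 ± 0.26, adjusted p = 2.08e-05), and Mcm6 at 5333, 5422 and 4887 in proliferating cells and 924, 1381 and 782 in myotubes (log2 change -2.38 ± 0.23, adjusted p = 1.44e-05). Every myotube value of these genes was below every proliferating one. Lig1, the ligase that joins Okazaki fragments, was at 3940, 3697 and 3155 in proliferating cells and 540, 823 and 431 in myotubes (log2 change -2.63 ± 0.27), and Pcna, the sliding clamp, at 2606, 2695 and 2409 in proliferating cells and 909, 1145 and 923 in myotubes (log2 change -1.38 ± 0.14). Proliferating replicate 1 was near the other libraries in all of them.

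The promoters of Mcm5 and Mcm6 are shown because replication genes are textbook targets of E2F. They were chosen after their values were seen and are RefSeq sequences of GRCm38.p6, for Mcm5 chr8:75109259-75109558 on the plus strand and for Mcm6 chr1:128359656-128359955 on the minus strand. Capitals mark the spellings TTTCGCGC and TTTGGCGC on either strand, which overlap each other in both promoters. In Mcm5 they begin 153 and 149 bases before the start, and in Mcm6 110, 106 and 47 before. Either spelling was found in 21.4% of 42 promoters of replication genes, against 1.44% of members and 0.813% of all promoters.
Mcm5: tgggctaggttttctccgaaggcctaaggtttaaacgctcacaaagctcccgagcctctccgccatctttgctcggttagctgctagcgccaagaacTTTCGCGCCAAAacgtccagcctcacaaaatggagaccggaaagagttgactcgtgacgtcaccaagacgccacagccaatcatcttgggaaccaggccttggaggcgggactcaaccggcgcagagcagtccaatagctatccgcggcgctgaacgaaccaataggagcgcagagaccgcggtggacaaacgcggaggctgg
Mcm6: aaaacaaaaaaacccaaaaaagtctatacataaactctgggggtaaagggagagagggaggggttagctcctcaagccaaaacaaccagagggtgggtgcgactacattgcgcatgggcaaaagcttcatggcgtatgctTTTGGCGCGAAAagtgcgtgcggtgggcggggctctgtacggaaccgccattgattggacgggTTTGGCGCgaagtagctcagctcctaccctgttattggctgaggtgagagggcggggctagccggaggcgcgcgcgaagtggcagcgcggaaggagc

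Of 45 mitosis and cytokinesis genes 36 were lower and 1 higher, with a median log2 change of -1.63, and with the 6 libraries alone 44 were lower. Espl1, the separase that splits sister chromatids, was at 2236, 2011 and 1882 in proliferating cells and 245, 373 and 225 in myotubes (log2 change -2.89 ± 0.60, adjusted p = 0.00234). Cdc20, an activator of the anaphase-promoting complex, was at 1976, 2296 and 2153 in proliferating cells and 506, 676 and 442 in myotubes (log2 change -2.00 ± 0.21, adjusted p = 2.61e-05), and Foxm1, a transcription factor of mitotic genes, at 2659, 2668 and 2345 in proliferating cells and 511, 656 and 436 in myotubes (log2 change -2.27 ± 0.32, adjusted p = 0.000164). Cyclin B2 (Ccnb2) fell less, from 869, 1149 and 927 to 459, 597 and 460 (log2 change -0.96 ± 0.21, adjusted p = 0.0034). Myotube replicate 2 was the highest myotube library in all 4, and still below every proliferating library.

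Some of the best known proliferation genes did not overlap between the stages but missed the threshold in the model of all stages. Mki67, the antigen Ki-67, was at 23855, 25457 and 22495 in proliferating cells and 9247, 13203 and 7550 in myotubes (log2 difference -1.30 ± 0.54, adjusted p = 0.0671, with 0.000126 to 0.183 over the alternatives). Cdk1, the mitotic kinase, was at 2910, 3351 and 3016 in proliferating cells and 1000, 1325 and 979 in myotubes (adjusted p = 0.113, with 4.33e-06 to 0.222), Plk1, a kinase of the spindle, at 1996, 2259 and 2029 in proliferating cells and 453, 602 and 384 in myotubes (adjusted p = 0.0505, with 1.95e-06 to 0.13), and Aurka, the kinase Aurora A, at 2025, 2341 and 2042 in proliferating cells and 505, 615 and 436 in myotubes (adjusted p = 0.138, with 1.12e-06 to 0.256). In each of these the lowest adjusted p came from a fit without the freshly isolated libraries or with a weight for each library. The exception to the fall was Pttg1, securin, an inhibitor of separase, which was at 66, 94 and 105 in proliferating cells and 261, 181 and 315 in myotubes (log2 change 1.49 ± 0.30, adjusted p = 0.0018).

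Promoters of mitotic genes are shown for the spellings CCAAT, bound by NF-Y, and TTTGAA, the core of the element known as CHR. They were chosen after their values were seen and are RefSeq sequences of GRCm38.p6, both on the minus strand, for Cdc20 chr4:118437294-118437593 and for Ccnb2 chr9:70421505-70421804. In Cdc20, CCAAT lies 53 and 8 bases before the start and TTTGAA 18 before. In Ccnb2, CCAAT lies 87, 54 and 21 before, and TTTGAA 167 before and again just after the start. On either strand TTTGAA was found in 71.1% of 38 promoters of mitosis genes, 11.7% of members and 17.9% of all promoters, and CCAAT in 76.3%, 36.9% and 37.4%.
Cdc20: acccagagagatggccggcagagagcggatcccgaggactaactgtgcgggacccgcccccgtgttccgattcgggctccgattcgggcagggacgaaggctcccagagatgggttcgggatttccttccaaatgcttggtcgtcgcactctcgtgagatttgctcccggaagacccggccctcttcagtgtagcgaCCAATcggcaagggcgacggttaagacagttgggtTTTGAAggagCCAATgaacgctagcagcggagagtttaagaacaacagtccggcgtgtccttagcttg
Ccnb2: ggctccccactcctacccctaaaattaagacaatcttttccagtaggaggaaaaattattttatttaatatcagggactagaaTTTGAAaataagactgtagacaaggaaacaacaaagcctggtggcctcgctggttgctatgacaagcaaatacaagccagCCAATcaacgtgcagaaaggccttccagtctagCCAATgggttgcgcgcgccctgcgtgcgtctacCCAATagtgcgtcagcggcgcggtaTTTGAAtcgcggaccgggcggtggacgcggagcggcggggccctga

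Among 33 genes of G1 control, 10 were higher (30.3%) and 12 lower (36.4%), with a median log2 change of 0.01. Over all members 31.0% were higher and 27.7% lower. Some inhibitors were among the rises and some activators among the falls. Cdkn1a, the inhibitor p21, was at 1855, 4227 and 3918 in proliferating cells and 17944, 14798 and 20494 in myotubes (log2 change 2.49 ± 0.26, adjusted p = 2.78e-05), and Rb1 at 808, 1555 and 1375 in proliferating cells and 4193, 4640 and 4813 in myotubes (log2 change 1.92 ± 0.23, adjusted p = 5.36e-05). Mybl2, a partner of the complex that drives mitotic genes, was at 1718, 1365 and 1115 in proliferating cells and 120, 153 and 92 in myotubes (log2 change -3.52 ± 0.35, adjusted p = 1.72e-05). Ccnd1, cyclin D1, was at 8761, 6197 and 5782 in proliferating cells and 1839, 1728 and 1757 in myotubes (log2 change -1.94 ± 0.23, adjusted p = 5.53e-05), and its kinase partner Cdk6 at 4350, 4340 and 3690 in proliferating cells and 1003, 1134 and 957 in myotubes (log2 change -2.00 ± 0.11, adjusted p = 8.65e-07). None of these 5 genes overlapped between the stages, which also held for most members (40.4% above and 36.3% below). E2f1 was at 924, 814 and 775 in proliferating cells and 215, 294 and 185 in myotubes (log2 change -1.88 ± 0.20), and E2f6, a repressor of the same family, went up from 685, 570 and 676 to 1418, 1337 and 1568 (log2 change 1.16 ± 0.14). The Ccnd1 count is uncertain in part, as 23.4% of its exonic length is shared with a neighbouring gene. Ccnd3, cyclin D3, went the other way from Ccnd1 and was called higher (log2 change 0.69 ± 0.13, adjusted p = 0.00105).

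Of 33 members of the glycolysis, glycogen and phosphocreatine list (of 36 listed) 20 rose and 9 fell, with a median log2 change of 0.76. Ckmt2, the mitochondrial creatine kinase of muscle, was at 2, 1 and 2 in proliferating cells and 1879, 1076 and 2331 in myotubes (log2 change 9.32 ± 1.18, adjusted p = 8.79e-05). Pygm, the glycogen phosphorylase of muscle, was at 81, 204 and 222 in proliferating cells and 4969, 4079 and 6347 in myotubes (log2 change 5.02 ± 0.33, adjusted p = 1.85e-06), and Slc2a4, the insulin-regulated glucose transporter GLUT4, at 13, 20 and 29 in proliferating cells and 598, 551 and 701 in myotubes (log2 change 4.89 ± 0.37). The 9 that fell included Pfkl, Pfkp and Pygb, forms known from liver, platelets and brain. Pgam1, a phosphoglycerate mutase, was at 1039, 1076 and 1048 in proliferating cells and 192, 294 and 205 in myotubes (log2 change -2.22 ± 0.19, adjusted p = 7.78e-06). Pkm, pyruvate kinase, was at 38204, 39682 and 37444 in proliferating cells and 24606, 23598 and 25236 in myotubes (log2 change -0.65 ± 0.12, or -1.46 with quantile normalization), and its isoforms cannot be separated in gene counts.

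Nuclear genes of the respiratory chain rose almost without exception. Of 51 members (of 52 listed), 50 were higher and none lower, with a median log2 change of 1.43, and their share of the total was 0.655%, 0.741% and 0.703% in proliferating cells and 1.45%, 1.28% and 1.54% in myotubes. Cox6a2, the muscle form of a cytochrome oxidase subunit, was at 1, 10 and 3 in proliferating cells and 2438, 1237 and 2229 in myotubes (log2 change 8.73 ± 1.02, adjusted p = 5.18e-05), and Cox8b at 5, 10 and 15 in proliferating cells and 2351, 1426 and 2928 in myotubes (log2 change 7.72 ± 0.49, adjusted p = 1.63e-06). Ndufs4, a subunit of complex I, was at 943, 1142 and 1053 in proliferating cells and 5749, 4472 and 6804 in myotubes (log2 change 2.42 ± 0.16, adjusted p = 1.85e-06). Uqcrc1, a core subunit of complex III, was the member not called, at 4227, 4833 and 4504 in proliferating cells and 4245, 4311 and 4598 in myotubes, with overlap of the stages. Atp5b was called higher and changed sign under quantile normalization. All 37 genes coded by mitochondrial DNA had a listed value of 0 in every library, so the subunits coded there are not analysed here. With proliferating replicate 2 left out, the log2 change was 9.38 for Cox6a2.

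Of 23 genes of pyruvate dehydrogenase and the TCA cycle 14 rose and 5 fell (median log2 change 0.80). Mdh1, the cytosolic malate dehydrogenase, was at 1042, 1290 and 1250 in proliferating cells and 7596, 5209 and 7662 in myotubes (log2 change 2.50 ± 0.19, adjusted p = 4.16e-06). Among the kinases that shut pyruvate dehydrogenase, Pdk1 was at 69, 94 and 82 in proliferating cells and 670, 707 and 630 in myotubes (log2 change 3.03 ± 0.36) and Pdk2 at 41, 73 and 70 in proliferating cells and 359, 292 and 430 in myotubes (log2 change 2.56 ± 0.28), whereas Pdk4 was at 2213, 1768 and 1730 in proliferating cells and 1046, 921 and 1294 in myotubes (log2 change -0.81 ± 0.14). Fatty acid uptake and oxidation rose in 23 and fell in 2 of 27 members (of 28 listed, median 1.71). Fabp3, the fatty acid binding protein of heart and muscle, was at 2, 13 and 23 in proliferating cells and 2804, 2167 and 2590 in myotubes (log2 change 7.97 ± 1.14, adjusted p = 0.000206), and Ppargc1a, the coactivator that promotes mitochondrial genes, at 163, 138 and 127 in proliferating cells and 602, 615 and 698 in myotubes (log2 change 2.16 ± 0.19). The fall of Cpt1a, the liver form of the carnitine transferase, from 2097, 2004 and 2074 to 442, 555 and 412 (log2 change -2.14 ± 0.20), stood against that direction. When proliferating replicate 1 was removed, the log2 change became 7.10 for Fabp3. Leaving out proliferating replicate 3 gave log2 changes of 8.60 for Fabp3.

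Among biosynthetic lists, cholesterol and fatty acid synthesis had 14 lower and 2 higher genes of 28 (median log2 change -0.64), or 17 and 7 with the 6 libraries alone. Fasn, fatty acid synthase, was at 9459, 9075 and 8638 in proliferating cells and 1358, 1386 and 1430 in myotubes (log2 change -2.70 ± 0.11, adjusted p = 2.3e-07). Libraries of a stage were close together in Fasn. Of 27 genes of the amino acid response and serine synthesis, 9 were lower and 5 higher (median -0.13), or 11 and 9 with the 6 libraries alone, and the 33.3% lower was near the 27.7% over all members. Shmt2, the mitochondrial enzyme of serine and glycine conversion, was at 5231, 5165 and 4631 in proliferating cells and 1093, 1358 and 1206 in myotubes (log2 change -2.04 ± 0.12, adjusted p = 1.35e-06), and Slc7a11, the cystine transporter, at 715, 450 and 427 in proliferating cells and 117, 120 and 101 in myotubes (log2 change -2.19 ± 0.26), while Psat1, of serine synthesis, was at 4502, 4808 and 4384 in proliferating cells and 7661, 6646 and 9148 in myotubes (log2 change 0.76 ± 0.28). Leaving out any 1 of the 6 libraries ended the call of Psat1, with adjusted p-values from 0.0501 (without myotubes replicate 2) to 0.131 (without myotubes replicate 3), as did quantile normalization (adjusted p = 0.0613), no filter (0.0609) and no trend (0.0783).

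Of 26 ribosome biogenesis genes 21 fell and 2 rose, with a median log2 change of -1.06. Their share of the total was 0.964%, 0.808% and 0.755% in proliferating cells and 0.321%, 0.34% and 0.286% in myotubes. Myc, which drives growth genes, was at 1368, 835 and 714 in proliferating cells and 205, 167 and 141 in myotubes (log2 change -2.46 ± 0.23, adjusted p = 1.22e-05), and Npm1, nucleophosmin of the nucleolus, at 28059, 25535 and 22748 in proliferating cells and 7993, 9261 and 7563 in myotubes (log2 change -1.62 ± 0.12, adjusted p = 3.5e-06). Proliferating replicate 1 was highest in both. It was below both other proliferating libraries in 0 of the 26 genes, against 37.2% of all members. The 2 genes that rose were Nip7, at 859, 853 and 737 in proliferating cells and 1249, 1107 and 1211 in myotubes (log2 change 0.54 ± 0.13), and Polr1d, at 760, 751 and 677 in proliferating cells and 1146, 961 and 1127 in myotubes (log2 change 0.56 ± 0.15).

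Many proteins exist in a general and a muscle form, coded by different genes. Of 27 pairs listed, 25 had both forms among the members. The muscle or later form was higher and its partner lower in 10 pairs, both were higher in 9, and both lower in 1. The log2 ratio of the forms, which is read only as a difference between libraries, rose without overlap of the stages in 22 pairs, fell in 2 and overlapped in 1. The shift was 7.75 for Cox6a2 over Cox6a1, 7.47 for Actn2 over Actn1 (the alpha-actinins of the Z-disc and of stress fibres), 6.61 for Pgam2 over Pgam1 and 4.68 for Pfkm over Pfkp. In Actn2 over Actn1 the ratio was -6.36, -4.66 and -4.80 in proliferating and 2.18, 1.93 and 2.47 in myotube libraries. The shifts without proliferating replicate 1 were 7.18, 6.92, 6.03 and 4.59 in the same order.

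Regulators of the cell cycle, chromatin and splicing showed the same kind of shift. Ccnd3 over Ccnd1 shifted by 2.63, Ezh1 over Ezh2, the alternative enzymes of H3K27 methylation, by 2.42, and Ptbp2 over Ptbp1, splicing repressors, by 1.61. In the last pair only the fall of Ptbp1 was called. Ldha over Ldhb shifted by -1.37, as both lactate dehydrogenases rose and Ldhb by the larger factor (from 221, 275 and 270 to 1112, 862 and 1443). The receptor pair Chrne over Chrng overlapped, with ratios of -6.88, -9.62 and -8.25 in proliferating and -7.05, -7.81 and -7.16 in myotube libraries.

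**Figure D5:**
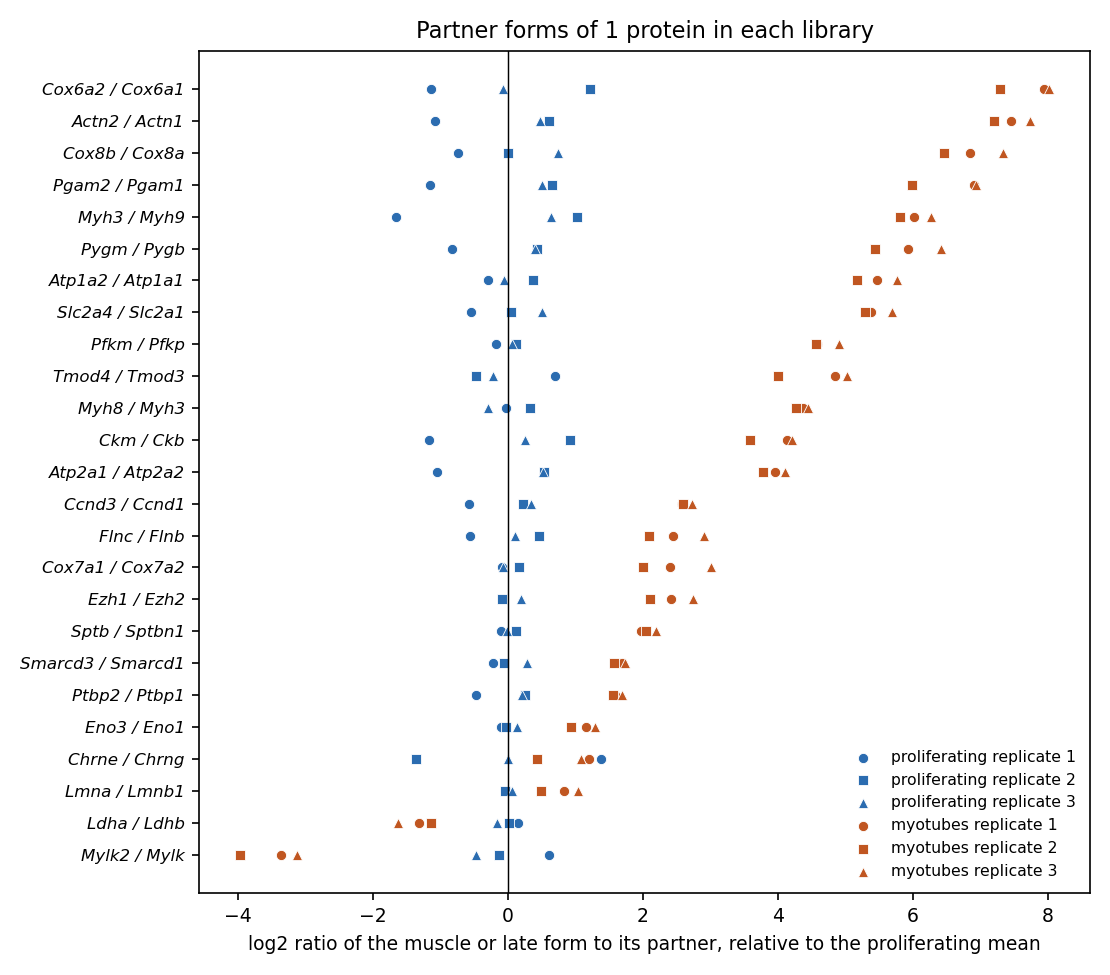
For 25 pairs of genes coding forms of one protein, points give the log2 ratio of the muscle or later form to its partner in each of 6 libraries, minus the mean of the proliferating libraries. Orange myotube points lie right of the blue proliferating points in 22 pairs, left in 2 (Ldha over Ldhb, Mylk2 over Mylk) and among them in Chrne over Chrng.

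Chromatin and DNA methylation genes were mostly lower, 25 of 37 against 4 higher, with a median log2 change of -0.99. Dnmt1, which copies DNA methylation at replication, was at 9994, 9593 and 8896 in proliferating cells and 1913, 2337 and 1534 in myotubes (log2 change -2.32 ± 0.19, adjusted p = 5.44e-06), and its partner Uhrf1 at 3841, 3771 and 3293 in proliferating cells and 695, 953 and 570 in myotubes (log2 change -2.33 ± 0.43, adjusted p = 0.00105). Hmga2, a chromatin protein of embryonic and growing cells, was at 5033, 2380 and 2813 in proliferating cells and 412, 433 and 225 in myotubes (log2 change -3.23 ± 0.47, adjusted p = 0.000221), and its relative Hmga1 at 2437, 1492 and 1398 in proliferating cells and 214, 171 and 147 in myotubes (log2 change -3.29 ± 0.25). Of the lamin genes Lmnb1 (7623, 8344 and 7883 in proliferating cells and 2340, 3134 and 1880 in myotubes, log2 change -1.73 ± 0.23) and Lmna (28318, 30606 and 31034 in proliferating cells and 15704, 16577 and 14490 in myotubes, log2 change -0.94 ± 0.13, or -1.56 with quantile normalization) fell, and Lmnb2, at 3137, 3611 and 3502 in proliferating cells and 2114, 2365 and 2068 in myotubes, was not called (adjusted p = 0.194, with 0.000106 to 0.325 over the alternatives). The 4 risers were Hdac9 (4, 19 and 14 in proliferating cells and 209, 224 and 209 in myotubes, log2 change 4.23 ± 0.63), Hdac11, Tet2 and Ezh1. Of 15 splicing regulators 3 rose and 3 fell (20% each, median -0.09), below the 31.0% higher and 27.7% lower over all members. Rbfox1, a splicing factor of muscle and nerve, was at 67, 40 and 44 in proliferating cells and 810, 762 and 1039 in myotubes (log2 change 4.11 ± 0.91). Ptbp1 was at 4065, 2879 and 2726 in proliferating cells and 840, 941 and 803 in myotubes (log2 change -1.88 ± 0.15). The log2 change without proliferating replicate 1 was 3.63 for Hdac9.

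Signalling genes split by pathway. Of 15 Notch genes (of 19 listed), 8 were lower and 1 higher, with a median log2 change of -0.62. The ligand Dll1 was at 2029, 3128 and 3305 in proliferating cells and 898, 1078 and 935 in myotubes (log2 change -1.51 ± 0.20, adjusted p = 0.000142), the receptor Notch2 at 3775, 3763 and 3790 in proliferating cells and 1573, 1732 and 1573 in myotubes (log2 change -1.22 ± 0.10, adjusted p = 7.9e-06) and the target Hes1 at 659, 633 and 676 in proliferating cells and 232, 290 and 229 in myotubes (log2 change -1.39 ± 0.21). Another target, Heyl, was the one that rose, from 65, 468 and 224 to 1552, 1596 and 1406 (log2 change 2.99 ± 0.53, adjusted p = 0.000845). The proliferating libraries differed by more than 7-fold in Heyl, with replicate 1 lowest. Log2 changes refitted without proliferating replicate 1 were 2.22 for Heyl. With proliferating replicate 2 left out, the log2 change was 3.64 for Heyl.

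Of 35 genes of IGF, FGF, TGF-beta and BMP signalling (of 36 listed), 16 were higher (45.7%) and 12 lower (34.3%), with a median of -0.17. The shares over all members were 31.0% and 27.7%. Ligands were among the largest rises. Igf2, a growth factor of muscle differentiation, was at 7073, 14634 and 12419 in proliferating cells and 78901, 78023 and 74892 in myotubes (log2 change 2.83 ± 0.25, adjusted p = 8.78e-06, or a log2 change of 2.13 with quantile normalization), and Igf1 at 5, 53 and 28 in proliferating cells and 641, 566 and 600 in myotubes (log2 change 4.84 ± 0.63, adjusted p = 0.000108). Mstn, myostatin, an inhibitor of muscle growth, was at 6, 14 and 7 in proliferating cells and 988, 895 and 1003 in myotubes (log2 change 6.67 ± 0.38, adjusted p = 1.06e-06), and its antagonist Fst, follistatin, at 54, 135 and 141 in proliferating cells and 743, 696 and 844 in myotubes (log2 change 2.90 ± 0.40). All 3 myotube libraries were high in each of these. An annotated transcript on the same strand, Gm49394, shares 62.8% of the exonic length of Igf2, so part of the Igf2 count is uncertain. Receptors and feedback genes were among the falls. Met, the receptor of hepatocyte growth factor, was at 12307, 11480 and 10505 in proliferating cells and 1701, 2147 and 1621 in myotubes (log2 change -2.66 ± 0.16, adjusted p = 1.26e-06), Fgfr1 at 3892, 4512 and 4358 in proliferating cells and 1907, 1991 and 1989 in myotubes (log2 change -1.11 ± 0.08, adjusted p = 3.35e-06) and Smad7, an inhibitor of TGF-beta signalling, at 2721, 1725 and 1918 in proliferating cells and 267, 297 and 232 in myotubes (log2 change -2.97 ± 0.17). When proliferating replicate 1 was removed, the log2 change became 3.93 for Igf1. Leaving out proliferating replicate 2 gave log2 changes of 5.51 for Igf1.

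Of 40 extracellular matrix members (of 44 listed) 22 rose and 6 fell, with a median log2 change of 0.94. Several collagens rose. Col1a1, of type I collagen, was at 18, 27 and 16 in proliferating cells and 834, 631 and 658 in myotubes (log2 change 5.08 ± 0.30, adjusted p = 1.28e-06), Col1a2 at 324, 778 and 629 in proliferating cells and 5453, 6401 and 5330 in myotubes (log2 change 3.40 ± 0.47) and Col6a1, of type VI collagen, at 54, 238 and 149 in proliferating cells and 1121, 1338 and 970 in myotubes (log2 change 3.18 ± 0.45). Col25a1, a transmembrane collagen needed for motor innervation, was at 28, 49 and 92 in proliferating cells and 2424, 2969 and 2824 in myotubes (log2 change 5.73 ± 0.54, adjusted p = 1.4e-05). Thbs1, thrombospondin 1, had the largest fall of the list, from 27340, 28960 and 26562 to 2726, 2883 and 2327 (log2 change -3.39 ± 0.13, adjusted p = 2.11e-07), followed by Tnc, tenascin C, from 7362, 4092 and 3775 to 1185, 1327 and 1114 (log2 change -2.01 ± 0.41). Col3a1, another fibrillar collagen, was at 3134, 3119 and 3154 in proliferating cells and 3873, 4447 and 3224 in myotubes and was not called (adjusted p = 0.406). The log2 change without proliferating replicate 1 was 2.58 for Col6a1.

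Imprinted genes are expressed from 1 parental copy, and many act on growth. Of 20 members (of 22 listed), 15 were higher and 1 lower, with a median log2 change of 1.63, and they rose from 0.849%, 1.03% and 0.992% of the total to 2.65%, 2.6% and 2.55%. Most of this share came from H19 in each library, so it mainly follows that gene. H19, a long non-coding RNA next to Igf2, was at 79813, 102182 and 96195 in proliferating cells and 343443, 293759 and 333303 in myotubes (log2 change 1.81 ± 0.13, adjusted p = 3.24e-06, or a log2 change of 0.97 with quantile normalization). From the Dlk1 cluster, Rian was at 78, 100 and 116 in proliferating cells and 2818, 3699 and 2429 in myotubes (log2 change 4.91 ± 0.18, adjusted p = 1.84e-07), Meg3 at 57, 83 and 88 in proliferating cells and 803, 1066 and 721 in myotubes (log2 change 3.49 ± 0.19, adjusted p = 8.68e-07) and Mirg at 15, 19 and 30 in proliferating cells and 259, 307 and 226 in myotubes (log2 change 3.61 ± 0.23). These non-coding RNAs had no overlap between the stages, and 40.4% of all members likewise lay wholly above. Plagl1 was called lower with overlapping libraries, at 2872, 2127 and 2384 in proliferating cells and 1664, 2232 and 1544 in myotubes (log2 change -0.45 ± 0.17, adjusted p = 0.0499). Snrpn was at 91, 79 and 72 in proliferating cells and 313, 288 and 380 in myotubes and was not called (adjusted p = 0.0943, with 3.35e-06 to 0.198 over the alternatives). Its value is uncertain, as 27.3% of its exonic length is shared with Gm38393 on the same strand. Peg3, at 33408, 31993 and 32599 in proliferating cells and 37854, 44106 and 36992 in myotubes, was not called, and under quantile normalization it was called lower (log2 change -0.61, adjusted p = 0.00351). The call of Plagl1 was lost without proliferating replicate 1 (log2 change -0.33, adjusted p = 0.175) or 3 (adjusted p = 0.0953) and without myotubes replicate 1 (adjusted p = 0.143) or 3 (adjusted p = 0.175), and its highest adjusted p under the remaining alternatives was 0.098 (no trend).

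Of 17 genes of p53 and its targets (of 18 listed), 14 rose and 1 fell, with a median log2 change of 1.12. The faller was Trp53 itself, at 1896, 1766 and 1664 in proliferating cells and 622, 677 and 564 in myotubes (log2 change -1.52 ± 0.10, adjusted p = 2.21e-06). Trp53i11, a p53-induced gene that was not on the list, also fell (log2 change -5.99 ± 0.38). Among the targets Ccng1, cyclin G1, was at 2638, 3031 and 2714 in proliferating cells and 21181, 16819 and 23365 in myotubes (log2 change 2.86 ± 0.26, adjusted p = 1.05e-05), and Pmaip1, the death promoter Noxa, at 251, 399 and 360 in proliferating cells and 3258, 2996 and 3536 in myotubes (log2 change 3.30 ± 0.19, adjusted p = 1.03e-06). FoxO, atrophy and autophagy genes rose in 11 and fell in 1 of 17 (median 1.02). Trim63, the ubiquitin ligase MuRF1, was at 6, 76 and 64 in proliferating cells and 2453, 1900 and 2509 in myotubes (log2 change 6.12 ± 0.91, adjusted p = 0.000263), and Fbxo32, the ligase atrogin-1, at 463, 635 and 617 in proliferating cells and 1767, 1620 and 1978 in myotubes (log2 change 1.65 ± 0.15, adjusted p = 1.05e-05). The one that fell was Ulk1, a kinase that starts autophagy, at 716, 739 and 756 in proliferating cells and 381, 426 and 444 in myotubes (log2 change -0.82 ± 0.09). Log2 changes refitted without proliferating replicate 1 were 5.00 for Trim63. With proliferating replicate 2 left out, the log2 change was 6.73 for Trim63.

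The stress and immune lists were mixed, as were all members, with 31.0% higher and 27.7% lower. Of 14 interferon and antigen presentation genes at the minimum (of 21 listed), 7 were higher and 2 lower (median log2 change 0.43). B2m, the light chain of class I molecules, was at 615, 692 and 659 in proliferating cells and 1373, 1485 and 1440 in myotubes (log2 change 1.13 ± 0.24), while the heavy chain gene H2-D1 was at 533, 549 and 505 in proliferating cells and 233, 218 and 242 in myotubes (log2 change -1.19 ± 0.09), and this family has near-identical copies. Of 18 immediate early genes (of 19 listed), 10 were higher and 5 lower (median 0.47), with Fos at 34, 34 and 24 in proliferating cells and 116, 112 and 110 in myotubes (log2 change 1.86 ± 0.15) and Junb at 1712, 1767 and 1844 in proliferating cells and 428, 362 and 415 in myotubes (log2 change -2.14 ± 0.09). Of 16 heat shock genes 9 were higher and 3 lower (median 0.34). Of the small heat shock proteins Hspb7 was at 35, 91 and 93 in proliferating cells and 2952, 2333 and 3019 in myotubes (log2 change 5.34 ± 1.14, adjusted p = 0.00262) and Hspb3 at 25, 44 and 35 in proliferating cells and 1417, 916 and 1150 in myotubes (log2 change 5.04 ± 0.53, adjusted p = 2.59e-05), while Hspb6, at 282, 306 and 257 in proliferating cells and 180, 184 and 204 in myotubes, was not called (adjusted p = 0.0655, with 0.00168 to 0.17 over the alternatives). The general chaperones Hspd1, of mitochondria (11662, 11554 and 9415 in proliferating cells and 4616, 5220 and 4503 in myotubes, log2 change -1.18 ± 0.12), and Hsp90aa1, of the cytosol (12400, 13531 and 11264 in proliferating cells and 5940, 6913 and 6084 in myotubes, log2 change -0.97 ± 0.12), fell.

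The 12 largest rises were mostly of muscle genes near 0 in the proliferating libraries. Ppp1r3a, which targets protein phosphatase 1 to muscle glycogen (chr6:14713977-14755274), was at 0, 1 and 0 in proliferating cells and 2345, 1964 and 2869 in myotubes (log2 change 10.87 ± 0.44, adjusted p = 2.3e-07). Hephl1, a copper-dependent ferroxidase, was at 0 in all 3 proliferating libraries and at 386, 334 and 492 in myotubes, at least 166-fold higher. Mlip, which binds lamin A in muscle, was at 0, 1 and 1 in proliferating cells and 425, 336 and 529 in myotubes (log2 change 8.06 ± 0.36, adjusted p = 3.58e-07). Limch1, an actin-binding protein, was at 8, 7 and 19 in proliferating cells and 3055, 2516 and 3348 in myotubes (log2 change 8.03 ± 0.33, adjusted p = 2.37e-07), and Dhrs7c, a dehydrogenase of the sarcoplasmic reticulum, at 0, 9 and 8 in proliferating cells and 2057, 1523 and 2115 in myotubes (log2 change 8.71 ± 0.82). With so few reads in proliferating cells the size of these changes depends on the pseudocount of 1. When proliferating replicate 1 was removed, the log2 change became 7.63 for Dhrs7c.

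Receptors and adhesion molecules were among the 12 largest falls. Fibcd1, a membrane receptor for acetylated sugars (chr2:31813290-31846005), was at 532, 274 and 449 in proliferating cells and 6, 3 and 2 in myotubes (log2 change -6.53 ± 0.43, adjusted p = 1.89e-06). Grik3, a glutamate receptor subunit, was at 1374, 611 and 760 in proliferating cells and 10, 17 and 5 in myotubes (log2 change -6.35 ± 0.43, adjusted p = 2.21e-06), and Selp, the adhesion molecule P-selectin, at 312, 153 and 209 in proliferating cells and 2, 3 and 1 in myotubes (log2 change -6.23 ± 0.74, adjusted p = 5.79e-05). All 3 were at 17 or less in every myotube library, and proliferating replicate 1 was the highest library. Trp53i11, a p53-induced gene, fell from a much higher level, from 4986, 4441 and 4134 to 73, 96 and 49 (log2 change -5.99 ± 0.38, adjusted p = 1.63e-06). Other losses were Adcyap1r1, the receptor of the peptide PACAP (893, 364 and 499 in proliferating cells and 11, 19 and 5 in myotubes), Lgr6, a receptor of R-spondins (301, 59 and 158 in proliferating cells and 2, 2 and 3 in myotubes), Dock8, an exchange factor (1422, 675 and 818 in proliferating cells and 18, 30 and 13 in myotubes), and Sp7, the bone factor osterix (1060, 921 and 1429 in proliferating cells and 27, 36 and 22 in myotubes). Leaving out proliferating replicate 2 gave log2 changes of -6.05 for Lgr6.

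Markers of other cells of muscle were low, with exceptions given here. All 4 haemoglobin genes were at 0 in the 6 libraries, as were Emcn of endothelium, Cxcl14 of fibroblasts and Retn of fat cells. The 8 endothelial markers, of which 5 were members (1 higher, 2 lower), summed to 147 to 173 in proliferating cells and 146 to 164 in myotubes. The 7 fibroblast markers (1 member, not called) summed to 25 to 34 and 18 to 27, the 4 fat cell markers (no member) to 1 to 4 and 0 to 2, and the 5 Schwann cell markers (2 members, not called) to 252 to 270 and 182 to 334. The 7 leukocyte markers (2 members, 1 higher and 1 lower) summed to 58 to 80 and 245 to 261, mostly the integrin gene Itgam (2, 6 and 3 against 223, 213 and 229), while the pan-leukocyte gene Ptprc was at 2 or less. The 4 tenocyte markers (4 members, 2 higher) summed to 1596 to 1853 and 3226 to 4185, mostly Scx, a tendon factor.

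Smooth muscle and pericyte markers (5 members of 7, 4 higher and 1 lower) summed to 9123 to 21157 in proliferating cells and 63909 to 65451 in myotubes. Acta2, smooth muscle actin, made up most of this, at 6866, 18161 and 14036 against 61639, 60374 and 60888. Tagln rose from 479, 1130 and 781 to 3265, 2924 and 2846, and Rgs5 from 10, 4 and 5 to 66, 76 and 28. Pdgfrb rose from 67, 226 and 118 to 298, 376 and 230, and its call was lost without some single libraries. The marker called lower was Cspg4, of pericytes, which fell from 1683, 1625 and 2123 to 162, 148 and 177. The smooth muscle genes Myh11 and Cnn1 stayed at 16 or less in all 6 libraries. The part of other cells in the results was not tested. The 10 markers of adult fibres were all called higher, with sums of 2225 to 7163 and 151906 to 196595.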

How the data were processed

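RNA was sequenced from 9 libraries, 3 each of freshly isolated, proliferating and differentiated satellite cells. Per the labels' protocols, ribosomal RNA was depleted and stranded total RNA libraries were made. Per the submitters' processing notes, STAR 2.4.0a, featureCounts 1.4.5-p1 and the mm10 build were used. The deposited values, treated as a score, are whole numbers that the authors made by scaling gene counts across libraries and rounding them. Which tool scaled them, the strand setting and the annotation release were not given in the sources used here. Columns of freshly isolated cells were assigned by elimination. Rounding and scaling leave depth only as an estimate, so no count model was used.

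Genes at 10 or more in at least 3 of the 9 libraries (17291) were fitted with limma 3.58.1 in R 4.3.3 on log2(value + 1) with a mean-variance trend. The 3 stages shared 1 model, and Benjamini-Hochberg adjusted p-values below 0.05 were called. A gene with a wide spread among freshly isolated libraries can therefore miss the threshold although the compared stages do not overlap. P-values rest on 1 spread between animals per gene, pooled over the 3 stages, and not on the compared stages alone. Freshly isolated replicate 1, with an estimated 12.0 M reads, had the lowest weight when libraries were weighted (0.118). Its deviation enters this spread. An exact permutation test of 3 against 3 cannot go below 0.1. In simulated data of 17291 genes for this contrast, 82% of 2-fold and 100% of 4-fold changes were recovered, with 4 false calls. The simulation used 1 fixed spread for all genes and libraries. It changed only 100 genes per fold, none near the minimum. It checks the code and does not give the recovery or the false calls in these data.

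The members, the 28 gene lists and the pairs were chosen with earlier results of these data known. Named genes are 10 landmarks, the 12 largest called rises and falls without overlap (stage mean 100 or more in the higher one), up to 4 called genes per list and direction (stage mean 50 or more), up to 3 uncalled genes per list, and the pairs. Other genes were named after their values were seen. Of 796 named or listed members, 39 share at least 20% of their exonic length with another gene, 33 of them with one on the opposite strand, which makes those values uncertain. Counts of genes with near-identical copies are uncertain too. Coordinates are those of GRCm38 (GENCODE vM21). Promoters are from RefSeq (GRCm38.p6). Alternatives were the 6 libraries alone, other pseudocounts, filters and scalings, no trend, library weights, a replicate block and leaving out each library. Tables were handled with Python 3.11.15, pandas 2.3.3 and numpy 2.4.6, and plots drawn with matplotlib 3.10.9.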

Additional observations from a re-analysis of the deposited data

How the results depend on the processing

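No alternative moved the count of members called higher or lower by more than 1.5 times. With the 6 libraries alone 5705 members were higher and 5088 lower, with library weights 5869 and 5242, and without any 1 library 3863 to 4167 and 3483 to 3713. Quantile normalization gave 3992 higher and 4714 lower, so that 45.9% of calls were higher against 52.8%. It changed the sign of 23 of 815 named or listed genes, among which 3 were called in either fit, with log2 changes of -0.0656 for Atp5b, -0.0755 for Ncam1 and -0.61 for Peg3. Of the 815 genes 652 were called, and 59 of these lost the call under at least 1 alternative and 51 without at least 1 library. Correlations of deviations between proliferating and myotube libraries of the same number were -0.002, -0.04 and 0.048. With 3 libraries per stage, these values cannot show whether the numbers pair the samples. With the replicate block 4480 members were higher and 3958 lower. A pseudocount of 5 moved 41 called genes by more than 1.5-fold and a pseudocount of 0.5 moved 9. A count of 0 allows up to 3 reads, or 2.25 to 2.81 normalized units in these libraries.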

Other observations

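Counts are also given for gene families outside the lists, grouped by symbol after the data were seen. Of 50 members among the replication-dependent histone genes 26 were lower and 3 higher (median log2 change -1.21), and without proliferating replicate 1 16 were lower. Of 77 cytoplasmic ribosomal protein genes 48 were higher and 4 lower (median 0.46), and of 75 mitochondrial ribosomal protein genes 48 were higher and 1 lower (median 0.73). Of 35 proteasome subunit genes 26 were higher and 2 lower (median 0.93). Over all members 31.0% were higher and 27.7% lower.

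Unconventional myosins held 11 lower and 5 higher genes of 17, with Myo18b among the higher (log2 change 2.95). Of 23 integrin genes 12 were higher and 6 lower, beside the 31.0% higher and 27.7% lower over all members. Itgb4, the integrin subunit of hemidesmosomes, was at 2320, 1818 and 2215 in proliferating cells and 168, 222 and 138 in myotubes (log2 change -3.60). Of 29 Hox genes 9 were lower and 2 higher, and the share lower was near the 27.7% over all members. Hoxc11 was at 275, 240 and 312 against 67, 82 and 78. Kcnn4, a calcium-activated potassium channel, was at 415, 269 and 385 against 17, 22 and 19 (log2 change -4.12).

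Of 499 members annotated as TEC, loci still to be tested by experiment, 138 were lower (27.7%, as over all members) and 48 higher (9.62%, median log2 change -0.48). Of 413 long intergenic non-coding RNAs 109 were higher (26.4%) and 69 lower (16.7%, median 0.21), both below the shares over all members.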
